A study of Mus musculus with 3 samples.

Results

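Lymphocytes move between blood, lymph and lymphoid organs by means of a small set of surface receptors, and 6 of them were examined here in regulatory T cells (Treg cells) through the histone mark H3K36me3: Ccr7, S1pr1, S1pr4, Cxcr4, Cxcr5 and Il7r. They were grouped by function, and no measured value enters the rule that picks them, but the set and the lists set beside it were drawn up with earlier results of these data known. All 6 had at least 1 peak of the mark with its midpoint in the annotated gene body, and all 6 were among the 10886 genes whose signal reached 20 RPKM when both libraries were added, of 55450 genes in the annotation. In Treg cells of the large intestine, S1pr1 carried 3.39-fold and Ccr7 2.53-fold less H3K36me3 than in Treg cells of the spleen. Cxcr4 and Cxcr5 were lower by smaller amounts, and no difference was detectable for S1pr4 and Il7r at this depth.

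H3K36me3 ChIP-seq was performed on CD3+CD4+YFP+ Treg cells of C57BL/6 mice that carry a Cre recombinase joined to yellow fluorescent protein under control of Foxp3, the lineage gene of Treg cells. The animals were at steady state, and the study's methods give a general age of young adults for its mice, with none given for this assay in particular. The spleen gave 1 library and the large intestine gave 1 library, each from pooled cells of female and male mice, and an input of splenic chromatin was not analysed here. There were no replicates, so each difference is one between 2 libraries and has no replicate check.

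H3K36me3 is written by Setd2 as RNA polymerase II elongates, so that the mark builds up over the body of transcribed genes towards their 3′ end. CCR7 takes lymphocytes into lymph nodes and the T cell zone along its ligands CCL19 and CCL21. S1PR1 senses sphingosine-1-phosphate (S1P), which is high in blood and lymph, and lets lymphocytes leave lymphoid organs. CXCR4 is the receptor of CXCL12, CXCR5 guides cells into B cell follicles along CXCL13, and Il7r encodes the α chain of the receptor for interleukin-7, a survival factor of resting T cells. In naive T cells the transcription factors FOXO1 and KLF2 promote expression of several of these genes.

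The strongest peak of each gene lay over its last exons or its coding exon. To show where the signal sat, 200 bases from inside that peak are given for the 2 genes with the largest ratio, for Cxcr4, whose level was highest, and for Il7r, whose ratio was nearest to 0. They come from the GRCm38 (mm10) assembly and are written 5′ to 3′ on the transcribed strand, which is the minus strand for all of them. Capitals mark coding bases, and lower case marks intron.
S1pr1, chr3:115712271-115712470, 58% GC: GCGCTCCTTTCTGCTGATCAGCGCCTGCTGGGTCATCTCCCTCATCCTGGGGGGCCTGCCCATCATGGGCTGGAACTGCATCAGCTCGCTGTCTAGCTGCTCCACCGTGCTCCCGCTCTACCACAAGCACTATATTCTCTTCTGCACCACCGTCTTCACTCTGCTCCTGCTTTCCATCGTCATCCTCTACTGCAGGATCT
Ccr7, chr11:99145935-99146134, 54.5% GC: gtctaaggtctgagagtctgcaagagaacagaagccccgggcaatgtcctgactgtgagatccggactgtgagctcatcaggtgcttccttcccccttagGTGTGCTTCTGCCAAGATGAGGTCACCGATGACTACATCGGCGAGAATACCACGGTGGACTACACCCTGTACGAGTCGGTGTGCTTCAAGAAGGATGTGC
Cxcr4, chr1:128589802-128590001, 43% GC: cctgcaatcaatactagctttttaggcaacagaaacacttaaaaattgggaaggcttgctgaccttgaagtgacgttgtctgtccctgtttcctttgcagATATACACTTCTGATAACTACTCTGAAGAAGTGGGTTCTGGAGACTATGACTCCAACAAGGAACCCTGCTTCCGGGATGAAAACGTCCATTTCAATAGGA
Il7r, chr15:9510066-9510265, 40.5% GC: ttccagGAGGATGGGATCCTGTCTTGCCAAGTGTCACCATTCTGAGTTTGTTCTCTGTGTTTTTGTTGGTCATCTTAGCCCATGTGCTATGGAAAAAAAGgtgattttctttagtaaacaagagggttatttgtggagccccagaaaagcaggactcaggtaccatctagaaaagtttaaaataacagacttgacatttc
The S1pr1 stretch is coding throughout, whereas the Ccr7 and Cxcr4 stretches cross from an intron into a coding exon and the Il7r stretch holds a whole short exon of 94 coding bases. The GC content printed with each stretch is that of its 200 bases only. The ratio of these libraries varied with the GC content of whole peaks. For the peaks that hold these stretches it was 44.4% for S1pr1, 53.4% for Ccr7, 50.5% for Cxcr4 and 40.3% for Il7r. Over all peaks, the median log2 ratio (large intestine to spleen) ran from -0.41 in the tenth of peaks lowest in GC to 0.29 in the tenth highest in GC.

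Values are the mean RPKM coverage of a peak, that is, read coverage scaled to depth. The depth inferred from the values was 29.6 M mapped reads for spleen and 38.1 M for large intestine. For each gene the peak values were summed per library and compared as log2 of large intestine over spleen, with 0.5 RPKM added to each and the large intestine divided by 1.03, the ratio of the library totals. A negative ratio means more signal in spleen, and the scale understates the change of weak genes. The interval after each ratio is an approximate 95% interval for counting error only, which takes each read as covering 200 bp. Fewer cells with a transcribed gene and less of the mark per cell cannot be told apart in such bulk data. The cells were checked against markers, and all 9 Treg and T cell markers had a peak. Foxp3 had 132.5 RPKM in splenic and 156.3 RPKM in intestinal Treg cells, a log2 ratio of 0.19 (-0.01 to 0.40). Of the 9 markers, 5 were higher in spleen and 4 in large intestine. The interval lay below 0 for Ikzf2 (-0.55, -0.66 to -0.43), Cd3e (-0.41, -0.82 to -0.01) and Cd3g (-0.28, -0.53 to -0.04). It lay above 0 for Ctla4 (0.59, 0.29 to 0.89). Of 9 B cell markers 5 had a peak, with a sum of 86.3 and 74.3 RPKM and none over Ms4a1, Ebf1, Cr2 and Blk. Cd79a (47.2 and 29.8 RPKM, log2 ratio -0.70, -1.35 to -0.05) and Cd22 (12.4 and 0.25 RPKM, -4.12, -6.31 to -1.93) were higher in spleen. Cd79b, Fcer2a and Pax5 were higher in large intestine, with ratios of 0.54, 0.53 and 1.15 and intervals that included 0. Cd22 and Pax5 were below the filter of 20 RPKM. Of the 2 CD8 T cell markers, Cd8a had no peak and Cd8b1 had 21.1 and 9.46 RPKM over 2 peaks (log2 ratio -1.16, -2.33 to 0.01). There was a peak over 1 of 7 myeloid and 0 of 3 dendritic cell markers, and the 2 of 6 epithelial markers with a peak summed to 29.9 and 59.8 RPKM. These were Epcam, with 25.3 and 47.2 RPKM (0.84, 0.20 to 1.49), and Vil1, with 4.63 and 12.6 RPKM (1.31, -0.20 to 2.82). Vil1 was below the filter. Of 5 stromal and endothelial markers 2 had a peak, with a sum of 944.5 and 566.6 RPKM. Pecam1, which T cells also express, made up most of it, with 910.8 and 499.6 RPKM (-0.91, -1.03 to -0.79), while Col1a1 had 33.6 and 67.1 RPKM (0.94, 0.31 to 1.57). Col1a2, Pdgfra and Cdh5 had no peak. The part of other cells in the results was not tested.

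S1pr1 had the largest ratio of the 6 genes. S1pr1 (ENSMUSG00000045092.8, chr3:115710433-115715072, minus strand) had 32.0 RPKM in splenic and 9.36 RPKM in intestinal Treg cells over 2 peaks. The log2 ratio was -1.76 (-2.23 to -1.30), the 20th lowest of the 10886 genes. Both peaks were higher in spleen. The peak nearer the start, 478 bp within the intron, had 8.36 RPKM in splenic and 1.78 RPKM in intestinal Treg cells. The other, of 3036 bp, had 23.6 and 7.58 RPKM, and it held 1146 bp of coding sequence and 1419 bp of UTR and ran 471 bp past the annotated end. The difference went on downstream of the gene. Within 10 kb past its 3′ end lay 9 more peaks, in no annotated gene body and out to 6840 bp, which summed to 108.4 RPKM in splenic and 48.9 RPKM in intestinal Treg cells (log2 ratio -1.19). Of these, 8 were higher in spleen and 6 over 2-fold higher, against 51.0% and 9.58% of all peaks. The farthest had 6.56 RPKM in splenic and 8.70 RPKM in intestinal Treg cells. The intervals of several of the 9 included 0. Among them were peaks of 382 bp (-1.11, -2.48 to 0.25) and 220 bp (-1.50, -3.41 to 0.42) that were over 2-fold higher in spleen. The nearest coding genes with a peak lay 172765 bp before its start (Dph5) and 2080284 bp past its end (Rnpc3), with ratios of -0.52 (-0.80 to -0.24) and -0.47 (-0.77 to -0.16), smaller than that of S1pr1.

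S1pr4, the other S1P receptor of the set, is found mainly on blood cells. S1pr4 (ENSMUSG00000044199.6, chr10:81497747-81500132, minus strand) had 20.1 RPKM in splenic and 17.5 RPKM in intestinal Treg cells. The log2 ratio of -0.24 had a wide interval, -1.19 to 0.71, so that neither a 2-fold lower level nor a 1.5-fold higher level in large intestine was outside it. Its 2 peaks went opposite ways. The 368-bp peak in the coding exon had 14.9 and 7.94 RPKM, and the 222-bp peak in the 3′ UTR had 5.29 and 9.60 RPKM. Just before the start of S1pr4 lies Gna15, a G protein α subunit gene on the same strand, which had 86.2 RPKM in splenic and 149.3 RPKM in intestinal Treg cells (log2 ratio 0.74, 0.44 to 1.04). Past its end, 1355 bp away, lies Ncln, which encodes a membrane protein of the endoplasmic reticulum, with 44.4 and 38.9 RPKM and a ratio of -0.23 (-0.34 to -0.13), close to that of S1pr4.

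Ccr7, the lymph node homing receptor, was next after S1pr1. Ccr7 (ENSMUSG00000037944.8, chr11:99144196-99155077, minus strand) had 61.5 RPKM in splenic and 24.8 RPKM in intestinal Treg cells. The log2 ratio was -1.34 (-1.65 to -1.03), the 84th lowest of all genes compared. All 3 peaks were higher in spleen. From the start of the gene they had 14.2, 18.0 and 29.3 RPKM in spleen, and 4.06, 9.07 and 11.6 RPKM in large intestine. Their ratios were -1.73, -0.99 and -1.34, and the interval of each lay below 0. The last of them spans 6112 bp, takes in the downstream exons with 1124 bp of coding sequence, and reaches 1006 bp past the gene end. The neighbouring coding gene with a peak on the 3′ side, Igfbp4, 89804 bp away, which encodes a binding protein of insulin-like growth factor, had a ratio of -0.88 (-1.46 to -0.31), and the one on the other side, Smarce1, a chromatin remodelling subunit, had -0.04 (-0.24 to 0.17).

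**Figure D1:**
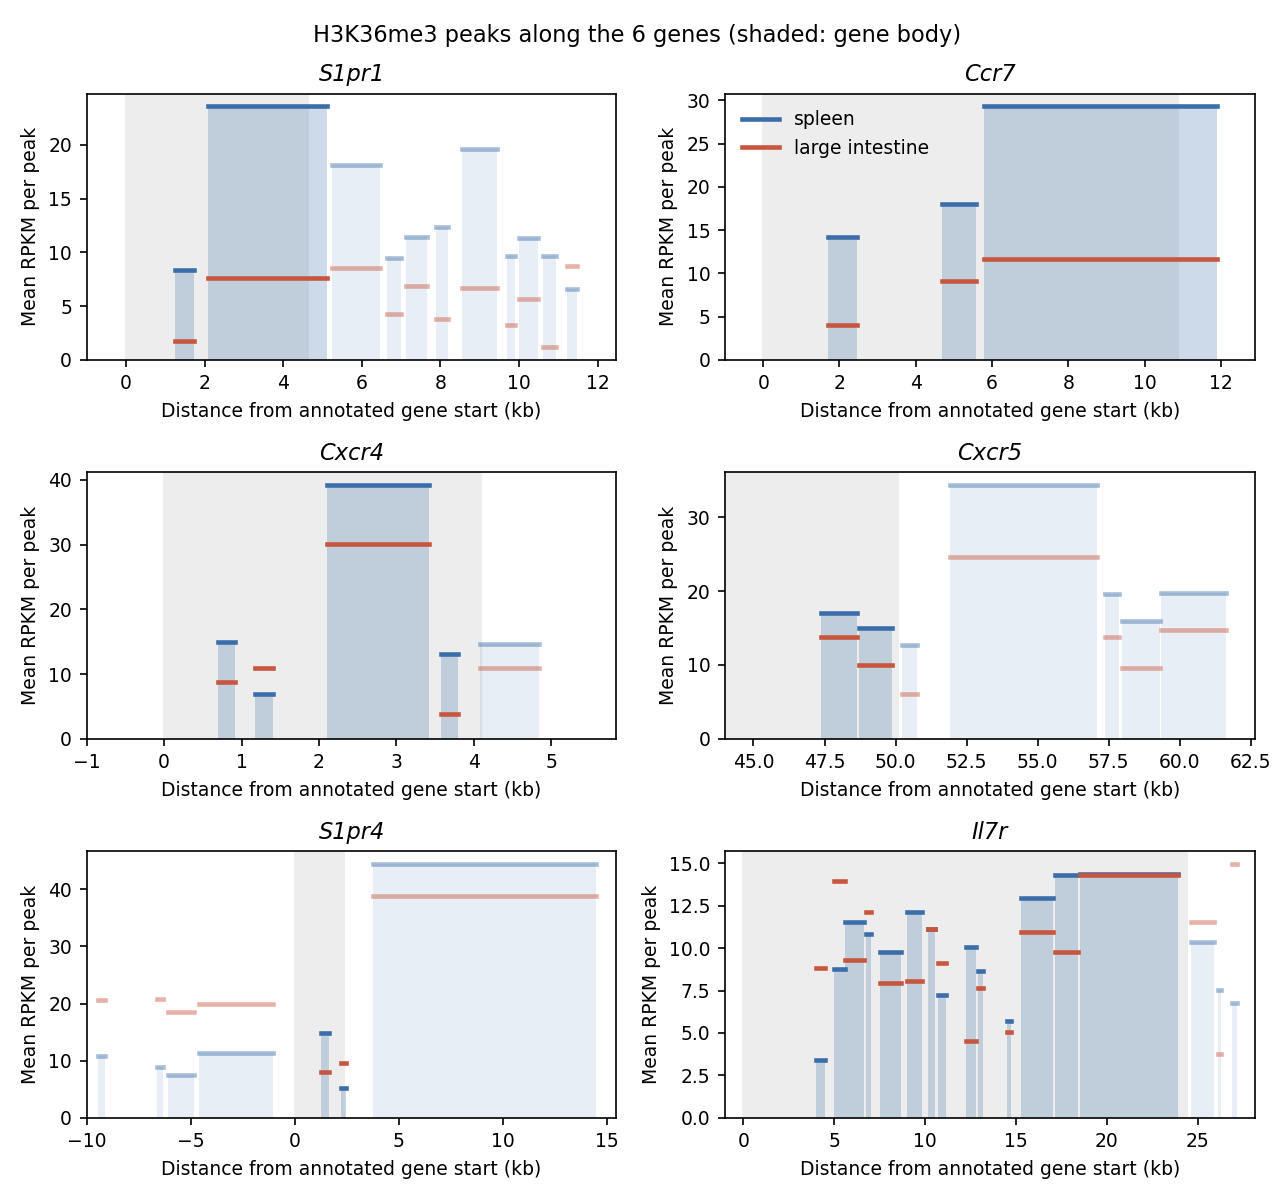
H3K36me3 peaks along the 6 genes, with the distance from the annotated gene start in kb across and the mean RPKM per peak upwards, as deposited, for spleen (blue, filled) and large intestine (red). The grey area is the gene body, paler bars are peaks outside it or of neighbouring genes within 10 kb, and the axis of Cxcr5 shows the end of its body. Both S1pr1 and all 3 Ccr7 peaks are higher in spleen, while those of Il7r go both ways.

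The chemokine receptors Cxcr4 and Cxcr5 showed smaller ratios of like size. Cxcr4 (ENSMUSG00000045382.6, chr1:128588199-128592293, minus strand) had 74.2 RPKM in splenic and 53.6 RPKM in intestinal Treg cells, a log2 ratio of -0.51 (-0.96 to -0.06). Of its 4 peaks 3 were higher in spleen. The 1318-bp peak, with 1026 bp of coding sequence, had 39.2 and 30.1 RPKM (ratio -0.42, -0.75 to -0.08). The other 3 are 215 to 229 bp long, and the interval of each included 0. Cxcr5 (ENSMUSG00000047880.15, chr9:44511787-44561877, minus strand) had 32.0 RPKM in splenic and 23.8 RPKM in intestinal Treg cells, a log2 ratio of -0.46 (-0.85 to -0.08). Its 2 peaks covered 4.83% of a body of 50091 bp and both lay at the 3′ end, 1 on the coding sequence (17.1 and 13.8 RPKM) and 1 on the 3′ UTR (14.95 and 10.02 RPKM). Both peaks were higher in spleen. Neighbouring genes had ratios of the same sign. Dars, a transfer RNA synthetase gene 170831 bp past the end of Cxcr4, had -0.70 (-0.93 to -0.47), and Bcl9l, a Wnt pathway cofactor gene on the opposite strand whose body overlaps that of Cxcr5, had -0.62 (-0.85 to -0.39). The ratios of the other neighbours were smaller, -0.28 (-0.79 to 0.23) for Cd55 before Cxcr4, and -0.26 (-0.41 to -0.12) for Ddx6 and -0.10 (-0.41 to 0.21) for Ccdc84 on either side of Cxcr5. The ChIP signal does not tell strands apart, but neither Cxcr5 peak had its midpoint in Bcl9l.

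Il7r carried nearly equal signal in both tissues. Il7r (ENSMUSG00000003882.5, chr15:9505788-9530176, minus strand) had 140.9 RPKM in splenic and 132.7 RPKM in intestinal Treg cells over 14 peaks, the most of the 6 genes, and a log2 ratio of -0.13 (-0.39 to 0.12). The interval leaves out a difference of 1.5-fold either way as far as counting error goes. The peaks went both ways, for the most part within the counting error. The 2 nearest the start had 3.40 and 8.77 RPKM in spleen against 8.82 and 14.0 RPKM in large intestine. Both intervals included 0 (-0.15 to 2.58 and -0.28 to 1.47). Of the 14 peaks 10 were higher in spleen, and only that of 1275 bp had an interval without 0 (-0.58, -1.14 to -0.01). The longest, 5416 bp over the last exons, had 14.4 RPKM in splenic and 14.3 RPKM in intestinal Treg cells. The neighbouring coding genes with a peak, Lmbrd2 and Dnajc21, had ratios of -0.12 and 0.02. The peaks of Il7r were poor in GC, 39.3% over the gene, and with the trend of GC content subtracted the ratio was 0.26.

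All 6 genes had more signal in spleen, against 49.3% of all genes compared, but for Il7r this turned with GC correction. Over 1.5-fold more signal in spleen was seen for 2 of the 6, S1pr1 and Ccr7, against 6.22% of all genes, and the same 2 were over 2-fold, against 2.04%. No receptor of the set was over 1.5-fold or 2-fold higher in large intestine, against 9.47% and 3.43% of all genes. The interval lay below 0 for 4 of the 6, against 14.2% of all genes. The median log2 ratio of the set was -0.49 and that of all genes 0.01. The middle 50% of all genes fell between -0.20 and 0.24 and the middle 90% between -0.66 and 0.84, so S1pr1 and Ccr7 lay outside the wider range, Cxcr4 and Cxcr5 between the narrower and the wider one, S1pr4 at the edge of the narrower range and Il7r within it.

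**Figure D2:**
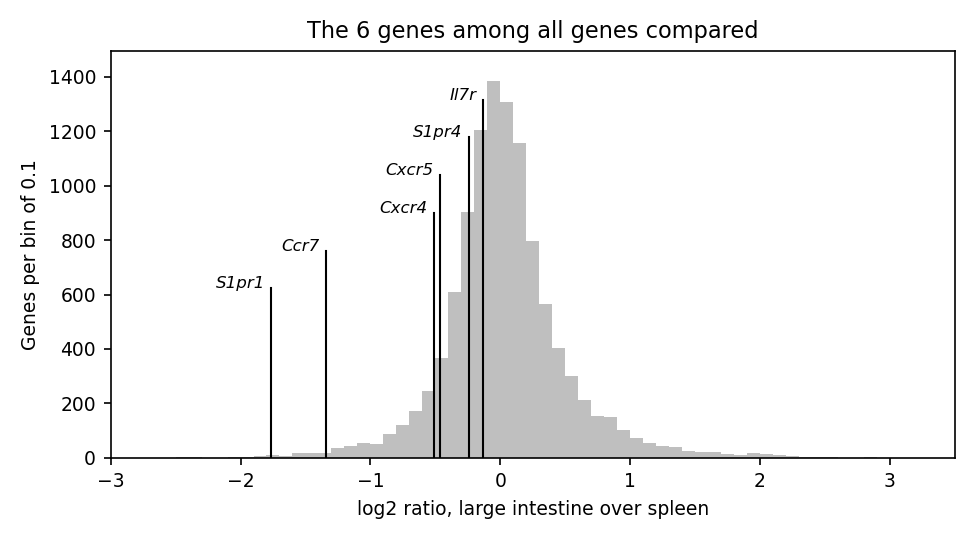
Number of genes per bin of 0.1 in the ratio (log2, large intestine to spleen), for the 10886 genes compared, with a line at the ratio of each of the 6 receptor genes. S1pr1 (-1.76) and Ccr7 (-1.34) lie in the left tail and Il7r (-0.13) in the centre.

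Peak by peak the picture was similar. The 6 genes held 27 peaks in their bodies, of which 21 were higher in spleen, against 51.0% of all 120910 peaks. Over 2-fold more signal in spleen was seen in 6 peaks, against 9.58% of all peaks. Over 2-fold more signal in large intestine was seen in 1 peak, that of Il7r nearest the start. The share of all peaks past that fold was not computed. The interval of this Il7r peak included 0. So did those of the Cxcr4 peak and the Il7r peak among the 6 over 2-fold higher in spleen. All 10 peaks of 1 kb or more were higher in spleen, against 48.6% of such peaks in all. The 27 peaks had a median GC content of 41.0%, against 46.5% over all peaks. With GC correction some Il7r peaks turned to large intestine, those of 1171 bp (0.22) and 5416 bp (0.23) among them. Fewer than 21 of the 27 peaks, and not all of the 10 long ones, then stayed higher in spleen. Peaks of 1 gene share its transcription and the same 2 libraries and are not replicates. None of the 27 peaks reached a gene start. The closest began 695 bp into Cxcr4, and those of S1pr1, S1pr4, Ccr7 and Il7r began 1249, 1259, 1699 and 3993 bp into the gene. By midpoint, 19 of the peaks lay in introns, 3 on coding sequence, 4 on UTRs and 1, in Il7r, on another exon.

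Levels can be set side by side between genes only per length, here as the mean RPKM per base of peak. In spleen the order was Cxcr4 (29.9), Ccr7 (26.6), S1pr1 (21.5), Cxcr5 (16.1), Il7r (12.2) and S1pr4 (11.3). Neighbours in this order differed beyond the counting error except Cxcr4 from Ccr7 (difference 3.39 RPKM, interval -1.74 to 8.52) and Il7r from S1pr4 (0.91, -4.41 to 6.22). In large intestine Cxcr4 was again first (22.7), followed by Cxcr5 (11.98), Il7r (11.2), Ccr7 (10.6), S1pr4 (8.56) and S1pr1 (6.79). Only Cxcr4 stood apart from its neighbour there, by 10.7 RPKM (6.45 to 14.97), and no other neighbours differed beyond the counting error. S1pr1 thus went from the third level to the last. In spleen 90.3% of genes had a lower level than S1pr1, and in large intestine 3.48% had. For Ccr7 these shares were 96.3% and 25.8%. Cxcr4 was above 88.7% of genes in large intestine. Il7r was near the middle in spleen, above 46.4% of genes, and above 31.8% in large intestine.

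**Figure D3:**
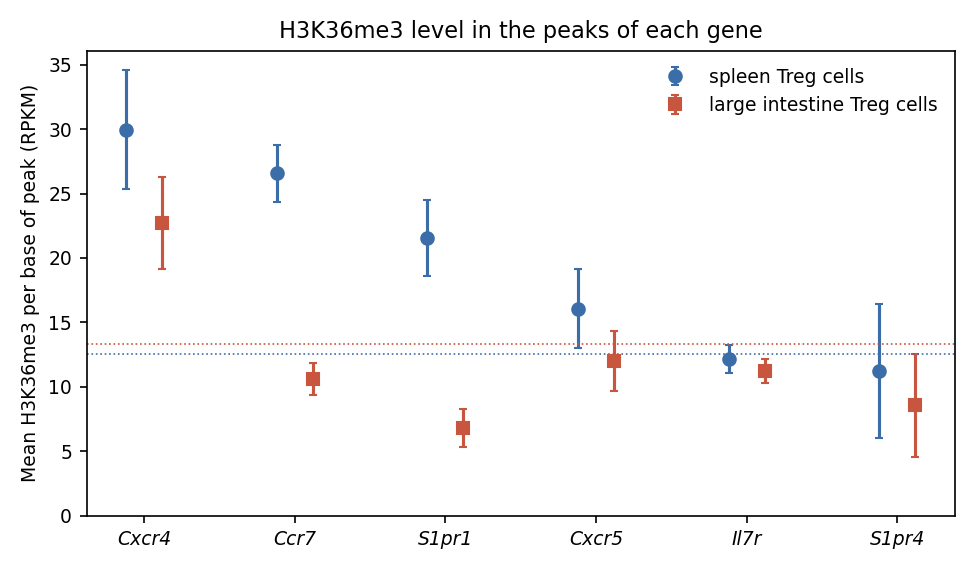
Mean H3K36me3 per base of peak in RPKM, as deposited, for each of the 6 genes in spleen (blue circles) and large intestine (red squares), with approximate 95% counting intervals. Dotted lines give the median gene, 12.5 RPKM in splenic and 13.3 RPKM in intestinal Treg cells, and S1pr1 and Ccr7 lie above the line in spleen and below it in large intestine.

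Other genes of the same pathways were then examined, as a list of 43. The 5 ligand genes (Ccl19, Ccl21a, Cxcl12, Cxcl13 and Il7) had no peak, nor did 7 further genes, among them the S1P receptors S1pr3 and S1pr5. The other 31 had enough signal, with a median log2 ratio of -0.07, which was 0.01 with GC correction. Of these, 2 were over 1.5-fold higher in spleen, against 6.22% of all genes, and 2 in large intestine, against 9.47%. The median of all genes was 0.01, so that as a whole the list lay near all genes.

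Those higher in spleen were Klf3 and Sphk1. Klf3, which encodes a Krüppel-like transcription factor, had 219.5 and 118.7 RPKM and a ratio of -0.93 (-1.16 to -0.70), with all 12 peaks higher in spleen. Sphk1, an S1P-making kinase gene, had 14.2 and 6.17 RPKM in a single weak peak, with a ratio of -1.18 whose interval, -2.77 to 0.41, included 0.

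The factors known to promote S1pr1 and Ccr7 showed less. Klf2 had 28.9 RPKM in splenic and 23.2 RPKM in intestinal Treg cells in 1 peak, a ratio of -0.36 (-0.87 to 0.15), which was -0.66 with GC correction. Foxo1 had 471.4 and 449.6 RPKM over 49 peaks, a ratio of -0.11 (-0.29 to 0.06). Neither interval excluded 0, and that of Foxo1 left out a 1.5-fold difference. A pair of S1P genes went the other way. S1pr2, whose receptor inhibits migration where S1PR1 favours it, had 38.2 RPKM in splenic and 76.2 RPKM in intestinal Treg cells, a ratio of 0.94 (0.54 to 1.34), with all 5 peaks higher in large intestine. Spns2, an S1P exporter gene, had 7.72 and 17.2 RPKM in 1 peak and a ratio of 1.06 (0.08 to 2.04). The signs for S1pr1, S1pr2, Klf3 and Spns2 were the same under the deposited scaling, median scaling and GC correction. This is no check of them, because these settings could not have turned ratios of this size. The GC terms subtracted ran only from -0.53 to 0.35.

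By group, the median ratio was 0.03 for the 9 S1P axis genes with enough signal, -0.18 for 7 genes of transcription factors and a selectin ligand, -0.13 for 9 genes of receptor signalling and 0.17 for 6 partners of the IL-7 receptor. None of the signalling genes or IL-7 receptor partners was over 1.5-fold apart in either direction.

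Receptors that lead T cells into peripheral tissues, together with the integrin gene Itgae, were used as a contrast. Of these 12 genes, 7 had enough signal, Itgae among them. All 7 had more signal in large intestine, by over 1.5-fold for 6 and over 2-fold for 1, with a median log2 ratio of 0.84. The interval lay above 0 for 6 of the 7, against 1848 of the 10886 genes compared. Some of the 7, Ccr9 and Ccr2 among them, lie close together on chromosome 9 and may not be independent. Over all genes compared, 50.7% had more signal in large intestine, and 9.47% and 3.43% passed these folds. Another 3 of the list had a weak peak below 20 RPKM, among them Cxcr3, singled out here after its value had been seen, with 11.8 RPKM in splenic and 6.94 RPKM in intestinal Treg cells (-0.77, -1.83 to 0.30). Ccr2, a receptor of inflammatory chemokines, had 11.01 RPKM in splenic and 52.1 RPKM in intestinal Treg cells, with a ratio of 2.15 (1.44 to 2.85). Ccr6, the receptor of CCL20, had 56.1 and 107.4 RPKM over 8 peaks, all of them higher in large intestine, and a ratio of 0.89 (0.51 to 1.26). Ccr9, the gut-homing receptor, had 155.9 RPKM in splenic and 310.3 RPKM in intestinal Treg cells (0.95, 0.68 to 1.21), but all 27 of its peaks also lay in other annotated genes, Lztfl1 among them, so its own share is uncertain.

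**Figure D4:**
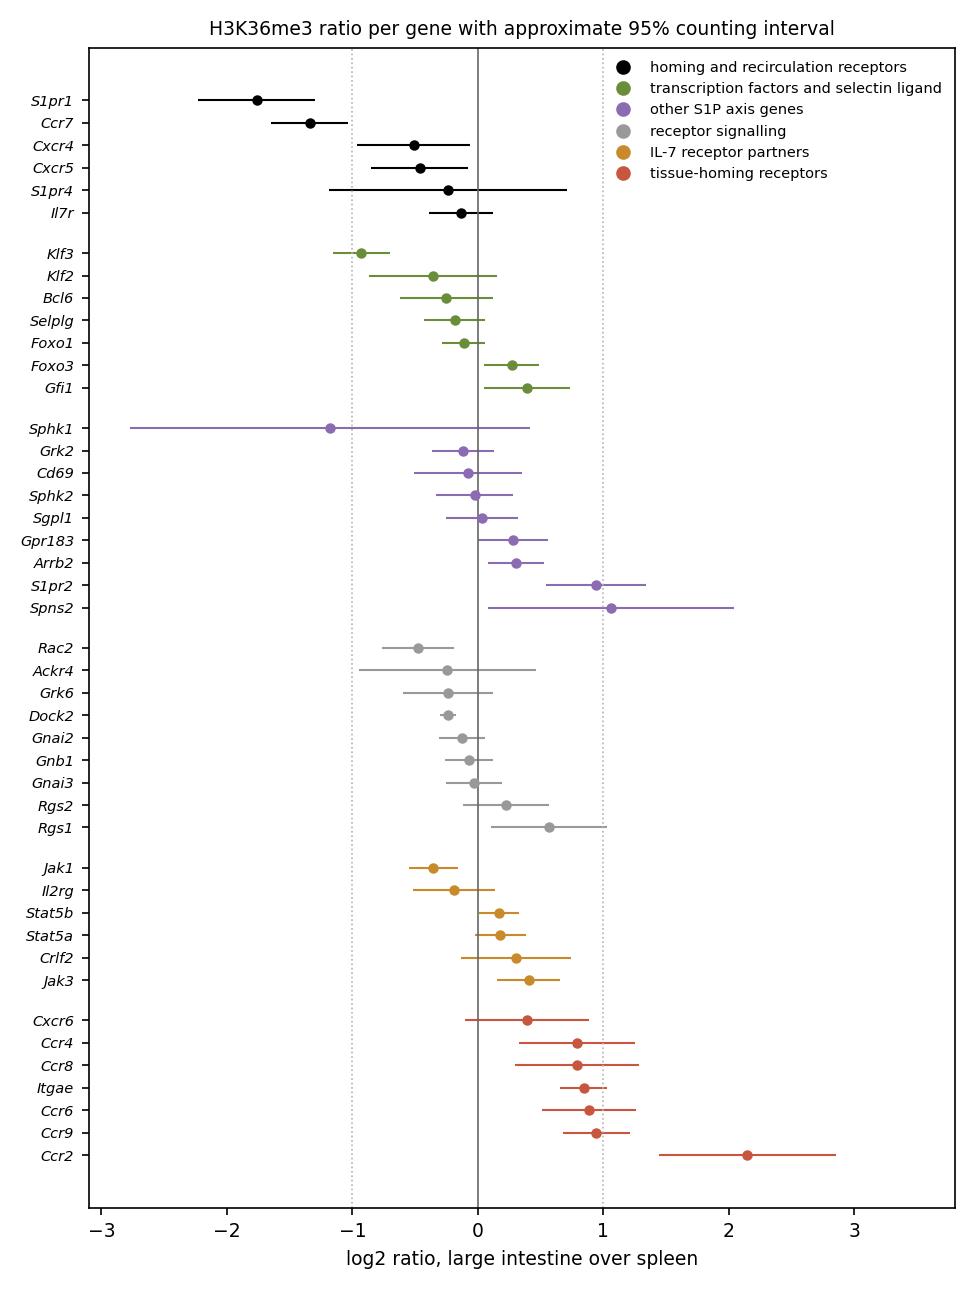
Log2 ratio of H3K36me3 in large intestine over spleen for single genes with enough signal, with approximate 95% counting intervals, grouped by role and sorted within each group. Dotted lines mark a 2-fold difference, and S1pr1, Ccr7 and Sphk1 lie past it towards spleen, while Ccr2 and Spns2 lie past it towards large intestine.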

How the data were processed

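H3K36me3 ChIP-seq reads were single-end reads of 75 nt. The authors aligned them to mm10 (Bowtie2 and MACS2 are named in the submitters' processing notes), called peaks per tissue against the input, merged the peaks of both tissues, and averaged RPKM-scaled coverage over each merged peak. The deposited values are therefore mean RPKM per peak for 2 libraries, although the table is named as raw counts, and no count test was run. The depth was inferred from the step between values, taken as 1 read in a 20-bp bin. Chromosome names and lengths matched GRCm38.

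Peaks were assigned to each GENCODE M21 gene body that held their midpoint. Values were summed per gene, scaled to equal library totals, and compared on the log2 scale after adding 0.5 RPKM (the pseudocount), for genes that reached 20 RPKM in the sum of both libraries. Counting intervals took each read as covering 200 bp and treated reads as independent molecules. No p-value was computed, since each tissue had 1 library. GC correction subtracted the median ratio of 20 bins of peak GC content. Alternatives were other scalings, pseudocounts, filters, peak assignments and the strongest or longest peaks.

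All 6 receptors are described. Of the pathway list, Klf2 and Foxo1 were named whatever they showed and the others where past 1.5-fold. Of the tissue-homing list, at most 3 genes with the largest absolute ratio were named. Some genes of the lists and of this rule are not reported here, and the counts leave them out. For each receptor, the nearest coding gene with a peak on each side was considered. The receptors and lists were chosen with earlier results of these data known. The window sequences come from the RefSeq copy of GRCm38. Python 3.11.15, numpy 2.4.6, pandas 2.3.3 and pysam 0.24.0 were used.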

Additional observations from a re-analysis of the deposited data

How the results depend on the processing

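The 6 ratios were recomputed under 11 alternatives, 10 for S1pr4, which has no peak of 1 kb or more. Of these 65 values, 64 stayed within the counting interval of the value reported. The exception was Il7r, whose ratio became 0.26 with GC correction. The tally is a weak check, because some settings left a ratio as it was. Keeping only peaks in no other gene body changed none of the 6, and assignment by an overlap of 1 bp changed only Cxcr4. For S1pr4 the interval was wide (-1.19 to 0.71), so that even -0.91 lay within it. The ranges were -1.77 to -1.32 for S1pr1, -1.45 to -1.20 for Ccr7, -0.60 to -0.42 for Cxcr4, -0.58 to -0.34 for Cxcr5, -0.91 to -0.19 for S1pr4 and -0.31 to 0.26 for Il7r. S1pr1 and Ccr7 remained over 2-fold higher in spleen in each, and 1 more gene passed 1.5-fold with the nearest transcript start and the strongest peak (S1pr4) and with GC correction (Cxcr4 at -0.60). The counts over all genes varied with the filter, which also changed the number of genes compared. Over 1.5-fold and 2-fold higher in spleen were 677 and 222 of 10886 genes. These became 1032 and 457 of 11946 without the filter, and 131 and 39 of 4323 with at least 200 RPKM. A pseudocount of 5 RPKM left 138 of the 10886 over 2-fold. In large intestine the 1031 and 373 genes became 213 and 70 of 4323 with at least 200 RPKM. Without the filter 624 of 11946 were over 2-fold. With reads taken to cover 75 bp, chosen after the data were seen like the restriction to peaks in no other gene body, 2624 intervals lay below 0 in place of 1550. The input was not analysed here, so nothing was subtracted. No paired analysis was possible because each tissue had 1 library.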

Other observations

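Some genes outside the rule for named genes are given here as values and were picked after they had been seen. Gpr15, which encodes a homing receptor of the large intestine, had 2.33 RPKM in splenic and 14.2 RPKM in intestinal Treg cells in 1 peak, and Ccr1 had 2.40 and 13.6 RPKM in 1 peak. Both were below the filter of 20 RPKM. Cd69, whose protein binds S1PR1 and takes it off the cell surface, had 60.3 RPKM in splenic and 58.8 RPKM in intestinal Treg cells over 5 peaks, a log2 ratio of -0.08 (-0.51 to 0.35). Rgs1, which dampens signalling of chemokine receptors, had 24.1 and 37.0 RPKM over 3 peaks, a ratio of 0.57 (0.10 to 1.03). Rac2, a small GTPase of leukocyte migration, had 46.0 and 33.9 RPKM over 2 peaks, a ratio of -0.48 (-0.77 to -0.19).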
